A study of Mus musculus with 32 samples.

Results

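Messenger RNA levels of 8 mouse genes of class I antigen presentation are described across 32 RNA-seq libraries of E14 embryonic stem cells. The genes were chosen by name, with earlier results of these data known: the heavy chains H2-Q10, H2-K1, H2-D1 and H2-T23, the light chain B2m, and Tap1, Tap2 and Tapbp. H2-Q10 was selected on its rise after CTCF degradation in serum, so that comparison is a description for all of these genes and carries no test. Of the 8 genes, 7 had values among the 17440 genes listed in at least 1 of the 5 deposited tables, and H2-T23 was not analysed here. Tap2 had values in 4 tables, and its mean lay under the minimum for testing in the CTCF degradation table.

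MHC class I molecules carry short peptides from inside the cell to its surface, where CD8 T cells and natural killer cells read them. Each molecule pairs a heavy chain with B2m, the common light chain. TAP1 and TAP2 together form the transporter that moves peptides into the endoplasmic reticulum, and tapasin, the product of Tapbp, holds an empty heavy chain beside that transporter until a peptide is bound. H2-K1 and H2-D1 encode the classical heavy chains, while H2-Q10 encodes a non-classical heavy chain of the Qa family that is known as a secreted liver product in adult mice. Embryonic stem cells are known for low surface class I, and interferon raises these genes in most cell types through elements just upstream of their start sites.

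All libraries come from E14 mouse embryonic stem cells in which an auxin-inducible degron (AID) tags an endogenous protein so that an auxin triggers its destruction. CTCF, the DNA-binding protein that anchors chromatin loops, was tagged in every group but 3, and RAD21, a cohesin subunit, in those 3. The CTCF AID groups were untreated (0 h) or received IAA (indole-3-acetic acid, 500 uM) for 12 or 24 h, and the RAD21 AID groups were untreated or treated with 1 uM 5-Ph-IAA for 12 or 24 h. A second pair of CTCF AID groups, at 0 h and 12 h of IAA, is labelled as serum condition, although the growth protocol describes serum-free medium with LIF, PD0325901 and CHIR99021 for every sample. CTCF AID cells that overexpressed a control, wild-type CTCF or mutated CTCF were taken without IAA or with IAA. IAA was given for 12 h in the control and with mutated CTCF, and no time was taken for wild-type CTCF with IAA. CTCF AID cells that carried a control hairpin or a hairpin against Chd4, a nucleosome remodeller of the NuRD complex, had no IAA. The labels name no clone, no promoter and not the mutation. No untagged cells received an auxin, so an effect of the auxin itself cannot be told apart from loss of the tagged protein. Each of the 16 groups has 2 libraries, and since the labels do not say that these were separate cultures, the p-values measure only the spread between such libraries, which may be technical. Titles and treatment labels contradict each other for 4 overexpression libraries (mutated CTCF without IAA and wild-type CTCF with IAA), and the groups here follow the titles.

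Values are the authors' normalised counts, and the tables were normalised separately, so tests stay within a table. Values summed to between 15364584 and 19642332 per library. Transcripts of Chd4 were lower with the Chd4 hairpin (9725 against 3554 on average), and Ctcf was higher in both CTCF overexpression groups without IAA (9378 and 9650) than in their control (4233), whereas the degrons act on protein and leave no such check. All 8 stem cell markers, among them Pou5f1 and Nanog, were listed in every table. Of 8 leukocyte markers 2 or 3 were listed, and Ptprc, Csf1r, Itgax, Lyz2 and Cd52 were unlisted or at 0 throughout. In bulk RNA, fewer cells of a type and less RNA per cell cannot be told apart.

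On GRCm38 with GENCODE M21, 7 of the genes lie on chromosome 17, in the H2 complex. H2-K1 covers chr17:33996017-34000347 on the minus strand, H2-D1 covers chr17:35262730-35267499 and H2-Q10 covers chr17:35470089-35474563, both on the plus strand. Tapbp (chr17:33915899-33929292), Tap1 (chr17:34187553-34197225) and Tap2 (chr17:34203527-34216321) lie on the plus strand near H2-K1, and B2m lies apart at chr2:122147686-122153083. The values count reads over whole genes, so no exon, intron or UTR is measured on its own. Heavy chain genes are near-identical copies of each other in places: 19.0% of the 50-base stretches of the annotated H2-Q10 transcripts also occur in another gene, mostly in H2-Q7 (14.0%), against 9.63% for H2-K1, 12.8% for H2-D1 and 0% for B2m. At 150 bases the shares are 3.43% for H2-Q10, 0% for H2-K1 and 1.35% for H2-D1, so short reads from the heavy chains, above all from H2-Q10 and H2-Q7, may have been split between copies. Exons of Tapbp overlap those of Zbtb22 on the same strand (29.0% of Tapbp exon bases with a second gene included), and those of Tap1 and Tap2 overlap opposite-strand genes over 3.87% and 18.5%. Whether strand was used in counting is not given in the sources used here, so these values are uncertain by such reads.

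Start regions of 3 heavy chains and of B2m are shown. Of these genes H2-Q10, H2-K1 and B2m were called after CTCF degradation in serum-free medium, and H2-D1 was not. Tap1, called lower at 12 h, is not shown. In serum-free medium H2-Q10 and H2-K1 moved in opposite directions while B2m moved with H2-K1. This did not hold in serum, where H2-Q10 (2.67) and H2-K1 (0.26) were both higher and B2m was lower (-0.22). Each runs from 250 bases before to 50 bases after the start in RefSeq (GRCm38.p6), in the direction of the gene. Capitals mark the motifs found, apart from TATAAA, which is left in lower case.
H2-Q10 (chr17:35469839-35470138, plus strand): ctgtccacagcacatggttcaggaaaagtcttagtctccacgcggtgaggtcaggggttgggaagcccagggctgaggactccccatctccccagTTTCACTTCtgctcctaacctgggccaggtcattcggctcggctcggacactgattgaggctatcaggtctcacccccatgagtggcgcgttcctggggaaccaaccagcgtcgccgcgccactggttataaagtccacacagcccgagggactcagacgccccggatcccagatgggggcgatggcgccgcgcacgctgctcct
H2-K1 (chr17:34000298-34000597, minus strand): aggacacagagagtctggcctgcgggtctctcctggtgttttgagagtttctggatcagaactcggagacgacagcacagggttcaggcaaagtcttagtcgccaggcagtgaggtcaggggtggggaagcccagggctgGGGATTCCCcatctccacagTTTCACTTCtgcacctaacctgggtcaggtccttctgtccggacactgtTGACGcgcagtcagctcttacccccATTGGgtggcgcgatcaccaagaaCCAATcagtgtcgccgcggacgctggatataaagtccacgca
H2-D1 (chr17:35262844-35263143, plus strand): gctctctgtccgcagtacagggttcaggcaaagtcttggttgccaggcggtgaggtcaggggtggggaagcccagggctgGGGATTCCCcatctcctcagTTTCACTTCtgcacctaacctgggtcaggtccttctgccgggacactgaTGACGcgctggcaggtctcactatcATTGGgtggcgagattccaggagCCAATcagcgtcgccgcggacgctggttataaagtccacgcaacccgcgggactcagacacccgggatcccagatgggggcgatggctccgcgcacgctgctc
B2m (chr2:122147437-122147736, plus strand): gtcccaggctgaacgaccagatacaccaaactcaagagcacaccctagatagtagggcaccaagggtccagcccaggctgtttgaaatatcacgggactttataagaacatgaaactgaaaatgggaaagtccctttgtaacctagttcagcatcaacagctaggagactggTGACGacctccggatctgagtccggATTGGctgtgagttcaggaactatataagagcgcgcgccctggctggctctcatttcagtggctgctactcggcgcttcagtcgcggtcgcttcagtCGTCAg

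Letters searched on both strands were GAANNGAAA (core of an interferon response element), GGGATTCCC (kB element), TGACG (part of a cyclic AMP response element), CCAAT (bound by the NF-Y factor), TATAAA (a core promoter element) and AGGNGGC (from the middle of the CTCF motif), and no match overlapped another. The interferon element letters are in the H2-Q10, H2-K1 and H2-D1 windows, all as TTTCACTTC, and in 7.52% of 32851 promoter windows of the same length. The kB letters, in 0.353% of windows, are in H2-K1 and H2-D1 and not in H2-Q10. TGACG (20.8% of windows) and CCAAT (37.4%) are likewise in H2-K1, H2-D1 and B2m and not in H2-Q10. AGGNGGC (29.4%) is in none of the 4 windows shown. Among the windows searched but not shown, it is in Tap1 at -17 and in Tapbp at -78, and not in H2-T23. TATAAA (13.6%) is in all 4 windows shown but at unlike places. It lies at -28 from the start in H2-Q10 and at -26 in H2-D1. In H2-K1 it lies at 35, after the start (21 from a second annotated start), and in B2m at -152 on the opposite strand. The H2-Q10 window aligned to that of H2-D1 over 291 bases with 87.3% identity and to that of H2-K1 over 231 bases with 84.9% identity, and H2-K1 and H2-D1 aligned over 239 bases with 88.3%. A match describes letters in the window and shows no bound factor.

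Levels were ordered per kb of annotated exon, pooled over all transcripts of a gene, which allows only a rough comparison of genes within a table. For H2-Q10 the pooled exons (4.348 kb) cover nearly the whole gene, so its level per kb may be understated. For B2m they are 0.86 kb. In untreated CTCF AID cells H2-K1 stood at 220 ± 23.4 normalised counts per kb (SD, n = 2), B2m at 219 ± 7.29 and Tapbp at 196 ± 18.2, and these neighbours did not differ beyond their spread. H2-D1 followed at 46.8 ± 0.368 and Tap1 at 16.2 ± 1.84. H2-Q10 (4.01 ± 1.23) and Tap2 (2.97 ± 1.14) were lowest and did not differ beyond their spread. In untreated RAD21 AID cells B2m led at 321 ± 22.9 per kb, H2-D1 (141 ± 5.27), H2-K1 (123 ± 25.2) and Tapbp (123 ± 5.56) came next, and Tap1 (6.59 ± 0.589), H2-Q10 (4.71 ± 0.869) and Tap2 (2.78 ± 2.59) were again lowest. H2-K1 and H2-D1 thus stood apart in the first line and within their spread of each other in the second.

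**Figure D1:**
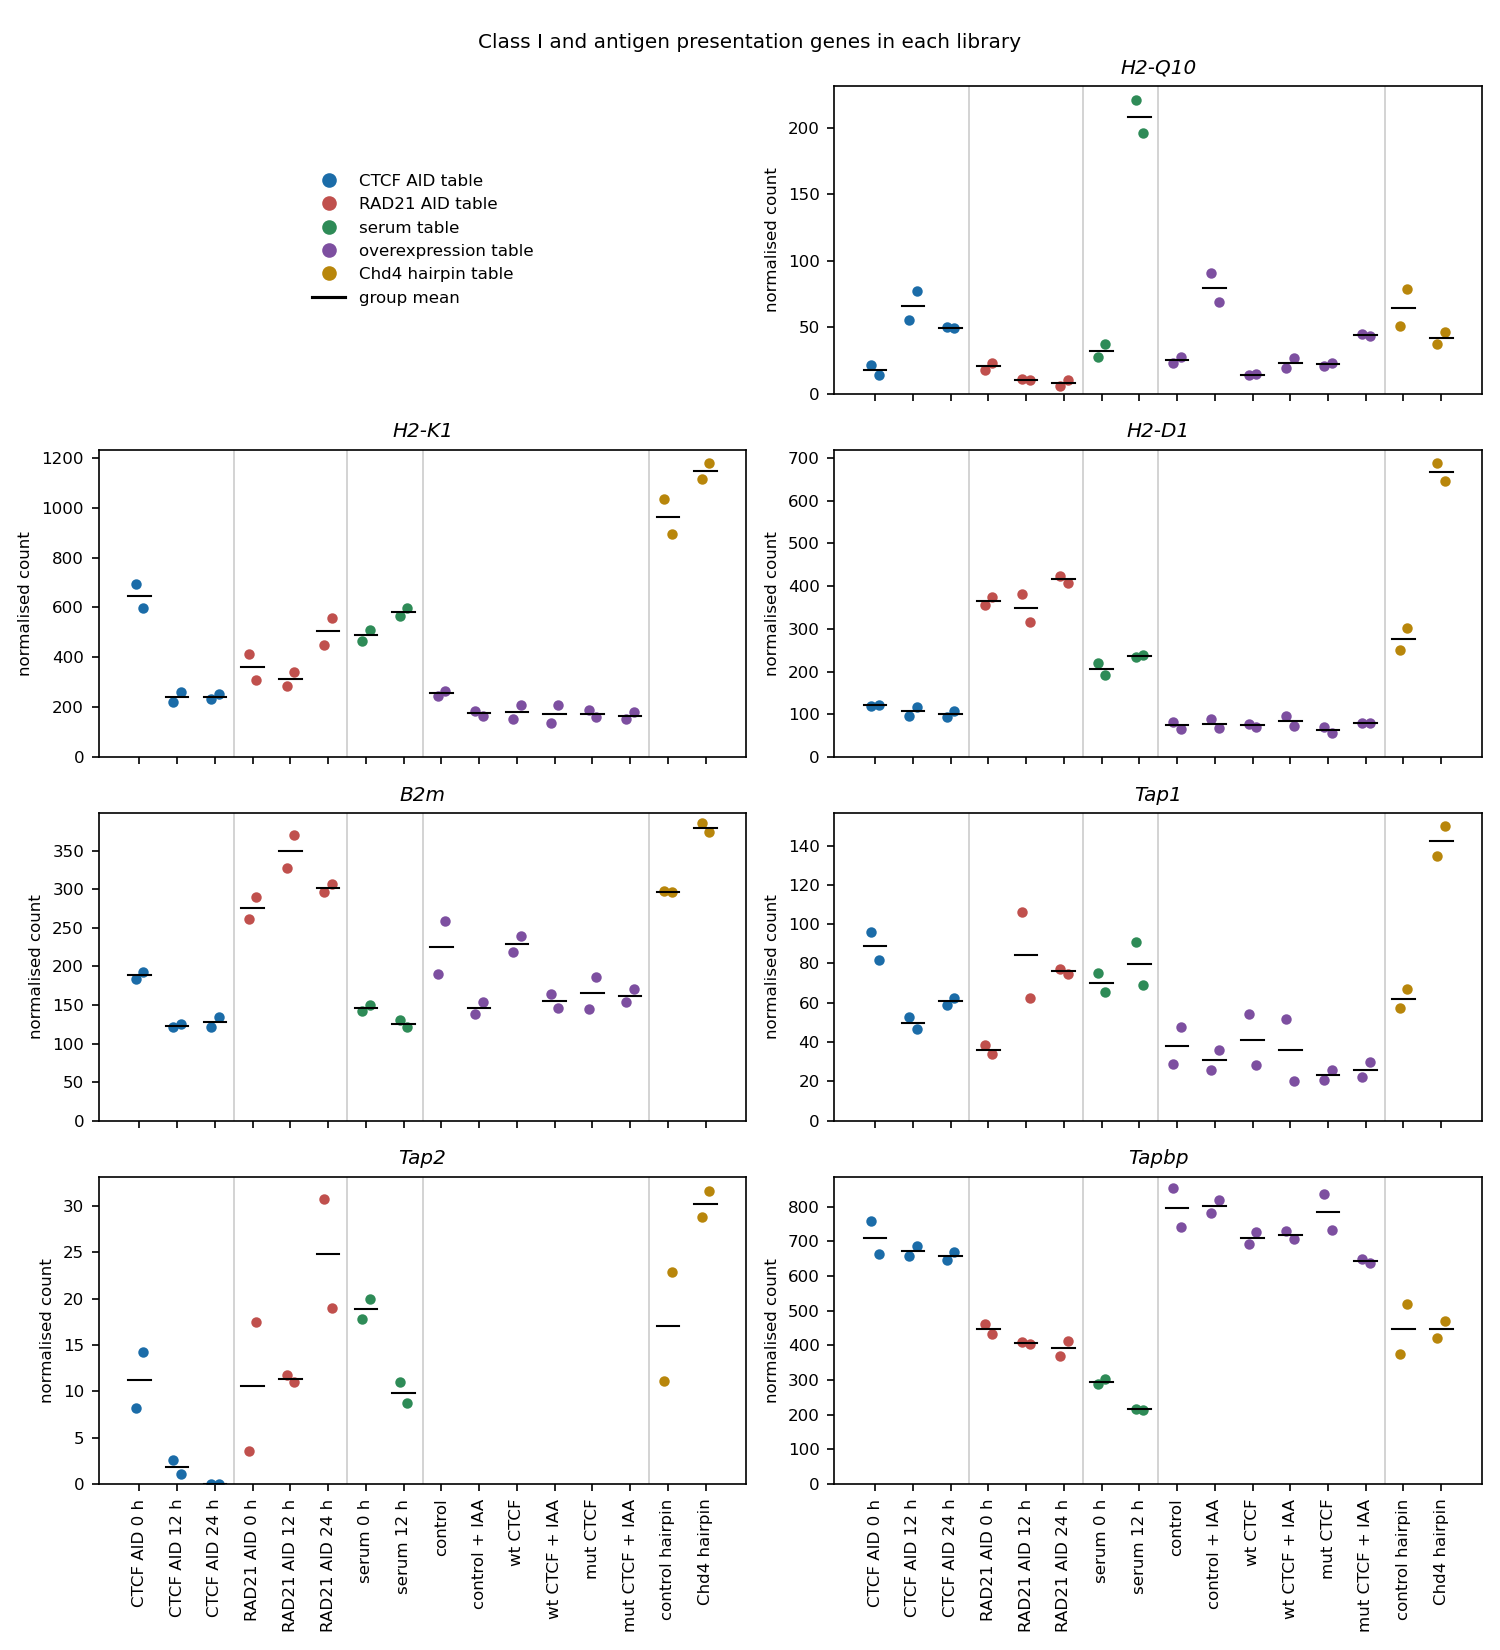
Normalised count (linear axis from 0) of each gene in every library, by group. Points are the 2 libraries of a group and bars their mean, and grey lines part tables that were normalised separately. H2-Q10 is highest in the serum group at 12 h, H2-K1 drops after CTCF degradation in serum-free medium, and H2-D1 and Tap1 are highest with the Chd4 hairpin.

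Degradation of CTCF in serum-free medium addressed which genes change under IAA as tagged CTCF is lost. H2-K1 fell to 37.4% of its untreated level and B2m and Tap1 fell less, while H2-Q10 rose 3.68-fold on the log2(value + 1) scale. H2-D1 and Tapbp were not called. H2-K1, a classical heavy chain, stood at 695 and 598 at 0 h, 221 and 262 at 12 h, and 233 and 253 at 24 h. Every treated library lay below both untreated ones, with a log2 difference of -1.42 ± 0.13 (SE) at 12 h and -1.41 ± 0.13 at 24 h (limma adjusted p 0.00079 and 0.00061).

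H2-Q10 went the other way, from 21.2 and 13.7 at 0 h to 55.4 and 77.2 at 12 h and 50.4 and 49.0 at 24 h. All 4 treated libraries were above both untreated ones, by 1.88 ± 0.32 and 1.49 ± 0.32 on the log2 scale (adjusted p 0.0086 and 0.016). B2m, the shared light chain, was at 184 and 193 untreated, 121 and 125 at 12 h and 121 and 135 at 24 h, without overlap. Its log2 differences were -0.61 ± 0.15 and -0.56 ± 0.15 (adjusted p 0.030 and 0.035).

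Tap1 was at 95.9 and 81.6 untreated, 52.9 and 46.7 at 12 h, and 58.9 and 62.6 at 24 h. It passed the test at 12 h (log2 difference -0.82 ± 0.21, adjusted p 0.039) and missed it at 24 h (-0.54 ± 0.21, adjusted p 0.12). Tap2, which was not tested, was at 8.18 and 14.3 untreated, 2.56 and 1.12 at 12 h, and listed at 0 in both libraries at 24 h. Both parts of the transporter thus lay lower in every treated library than in either untreated one.

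H2-D1, the second classical heavy chain, was at 120 and 121 untreated and between 92.6 and 117 in the 4 treated libraries, below both untreated ones. Its log2 differences of -0.18 ± 0.18 and -0.28 ± 0.18 did not pass (adjusted p 0.55 and 0.31). Tapbp stayed between 647 and 757 in all 6 libraries, with differences of -0.08 ± 0.09 and -0.11 ± 0.09 (adjusted p 0.59 and 0.42). Its treated libraries overlapped the untreated ones at both times.

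At 12 h, 4 of the 6 genes tested were called, 1 higher and 3 lower, where 17.8% of all 13699 genes tested were called (9.39% higher, 8.40% lower). The median log2 difference of the 6 was -0.39, where that of all genes was 0.00. At 24 h 3 of 6 were called, 1 higher and 2 lower, where 22.5% of all genes were (11.7% higher, 10.8% lower). The sum over the 9 listed H2-K, H2-D, H2-Q and H2-T genes, which does not depend on how reads were split between those copies, went from 991 and 907 at 0 h to 487 and 625 at 12 h and 520 and 551 at 24 h. This class I sum is not the total of class I, as it leaves out other heavy chains such as H2-Bl, described below. H2-K1 kept its call without any single library. H2-Q10 at 12 h lost it without the second 12 h library (1.64, adjusted p 0.064), and at 24 h without the second 0 h library, the first 24 h library or the second 24 h library (adjusted p 0.056 to 0.082). The 12 h calls of Tap1 and B2m ended without any one of the 0 h or 12 h libraries (adjusted p 0.10 to 0.19), and the 24 h call of B2m ended without any one of the 6 libraries.

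Of 8 primitive endoderm markers 4 were listed, with Gata6, Sox17, Foxa2 and Sox7 unlisted or at 0, and their sum went from 1725 to 1867 at 0 h to 2180 to 2238 at 12 h and 2883 to 3260 at 24 h. That sum is almost wholly Lama1 (1791 and 1646 to 2798 and 3166 at 24 h), which alone passed of the 3 tested, while Gata4 went from 36.8 and 32.6 to 27.8 and 24.7 without passing. The leukocyte sum (3 of 8 listed) went from 1235 to 1279 up to 1736 to 1797 at 24 h, almost wholly through Laptm5 (1265 and 1220 to 1723 and 1785), the only 1 of these markers that could be tested, and the stem cell sum from 96794 to 97063 down to 92365 to 93140. The stem cell markers were split at 24 h, with Tfcp2l1 and Zfp42 called higher and Dppa5a, Nanog and Pou5f1 lower. The median log2 difference of the 8 was 0.03. The part of these shifts in the class I values was not tested.

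**Figure D2:**
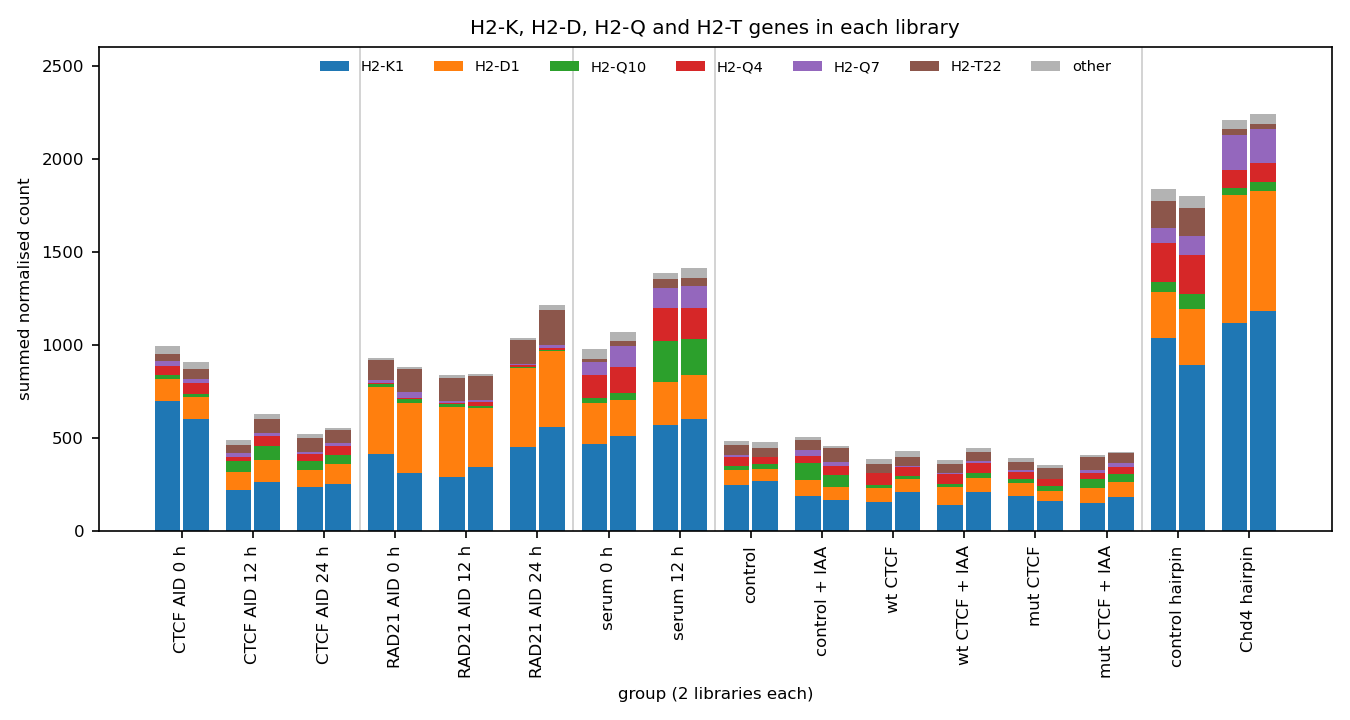
Normalised counts (linear axis from 0) of the H2-K, H2-D, H2-Q and H2-T genes stacked per library, 2 bars per group. The CTCF AID bars shrink from 991 and 907 to 487 and 625 at 12 h mainly through H2-K1, and in the serum bars H2-Q10 goes from 27.4 and 37.1 to 221 and 196.

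With serum, the same 12 h of IAA is described without a test. H2-Q10 was at 27.4 and 37.1 untreated and at 221 and 196 treated, a log2 difference of 2.67 (6.36-fold), and this rise is what selected the gene. H2-K1 was at 467 and 509 untreated and 567 and 599 treated (log2 difference 0.26), so both treated libraries were above the untreated ones, in contrast to serum-free medium. H2-D1 differed by 0.20 and Tap1 by 0.17, with overlapping libraries for Tap1. Lower values were seen for B2m (142 and 151 against 130 and 121), for Tapbp (288 and 302 against 216 and 214) and for Tap2 (17.8 and 19.9 against 11 and 8.78). The class I sum went from 976 and 1070 to 1388 and 1411. Summed stem cell markers went from 67832 to 68030 down to 57280 to 58213, and their part in these values was not tested.

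The overexpression libraries addressed whether CTCF supplied from a second source offsets loss of the tagged protein. In the control, H2-Q10 rose 3.07-fold with IAA and B2m fell to 65.9%. H2-Q10 was at 22.9 and 27.5 without IAA and 91.1 and 68.6 with it, without overlap (log2 difference 1.62 ± 0.28, adjusted p 0.0018). B2m went from 191 and 259 to 139 and 154 (-0.60 ± 0.18, adjusted p 0.028). H2-K1 went from 246 and 266 to 185 and 166, also without overlap, but missed the threshold (-0.54 ± 0.21, adjusted p 0.085). H2-D1, Tap1 and Tapbp did not pass, with differences of 0.07, -0.28 and 0.01. The class I sum, here over 8 listed genes, was at 483 and 478 without IAA and 505 and 458 with it. These libraries overlapped, unlike those of the CTCF AID cells in serum-free medium. Marker sums shifted alongside in the control: stem cell markers went from 124253 to 125528 down to 118457 to 119167, leukocyte markers from 2017 to 2052 down to 1722 to 1732 (almost wholly Laptm5), and trophoblast markers from 1579 to 1676 up to 1930 to 1984 (mostly Tfap2c, with Krt8 lower). Among the stem cell markers Tfcp2l1 was called higher, and Sox2, Dppa5a, Esrrb and Pou5f1 lower. The part of these shifts was not tested.

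With wild-type CTCF, H2-Q10 was at 13.6 and 14.8 without IAA and 19.3 and 27.1 with it (0.65 ± 0.28, adjusted p 0.13). With mutated CTCF it was at 20.6 and 23.4 without IAA and 44.8 and 43.7 with it (0.98 ± 0.28, adjusted p 0.037). Under IAA the 6 libraries therefore ranked control, mutated CTCF and wild-type CTCF from high to low without overlap between groups. Mutated against wild-type CTCF under IAA gave 0.92 ± 0.28 with an adjusted p of 0.13, above the threshold. The interaction, that is the IAA effect with a CTCF construct minus that in the control, was -0.97 ± 0.40 for wild-type CTCF (adjusted p 0.37, unadjusted 0.034) and -0.64 ± 0.40 for mutated CTCF (adjusted p 0.56, unadjusted 0.14). A smaller H2-Q10 response with either construct was therefore not shown by the test.

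H2-K1 lay between 137 and 209 in all 8 libraries with a CTCF construct, with or without IAA, while the control without IAA stood at 246 and 266. Those groups without IAA differed from the control by -0.52 ± 0.21 (wild-type) and -0.56 ± 0.21 (mutated) without passing (adjusted p 0.35 and 0.17). B2m fell with IAA beside wild-type CTCF, from 218 and 240 to 164 and 146 (-0.56 ± 0.18, adjusted p 0.043). Beside mutated CTCF it was at 144 and 187 without IAA and 153 and 171 with it (-0.02 ± 0.18). Tapbp fell slightly with IAA beside mutated CTCF, from 836 and 731 to 649 and 638 (-0.28 ± 0.08, adjusted p 0.046).

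Of the 6 genes tested, the IAA comparison called 2 in the control (25.3% of all 13938 genes, 12.8% higher and 12.5% lower), 1 beside wild-type CTCF (21.4%) and 2 beside mutated CTCF (16.2%). These shares lie near those of all genes. None was called between constructs: 0 of 6 for wild-type CTCF against control (0.897% of all genes), for mutated CTCF against control (5.55%), for mutated against wild-type CTCF under IAA (2.25%), or for the interactions (1.41% and 1.64%). At an unadjusted p under 0.05 these 5 comparisons held 2, 2, 1, 1 and 2 of the 6. H2-Q10 in the control kept its call without any single library, but with the groups taken from the treatment label its adjusted p was 0.085 and that of B2m 0.18. B2m in the control lost its call without the second untreated control library (-0.38, adjusted p 0.21) or either treated one, H2-Q10 with mutated CTCF without any library of its own 2 groups, B2m with wild-type CTCF in 8 of 12 omissions and Tapbp in 9 of 12.

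**Figure D3:**
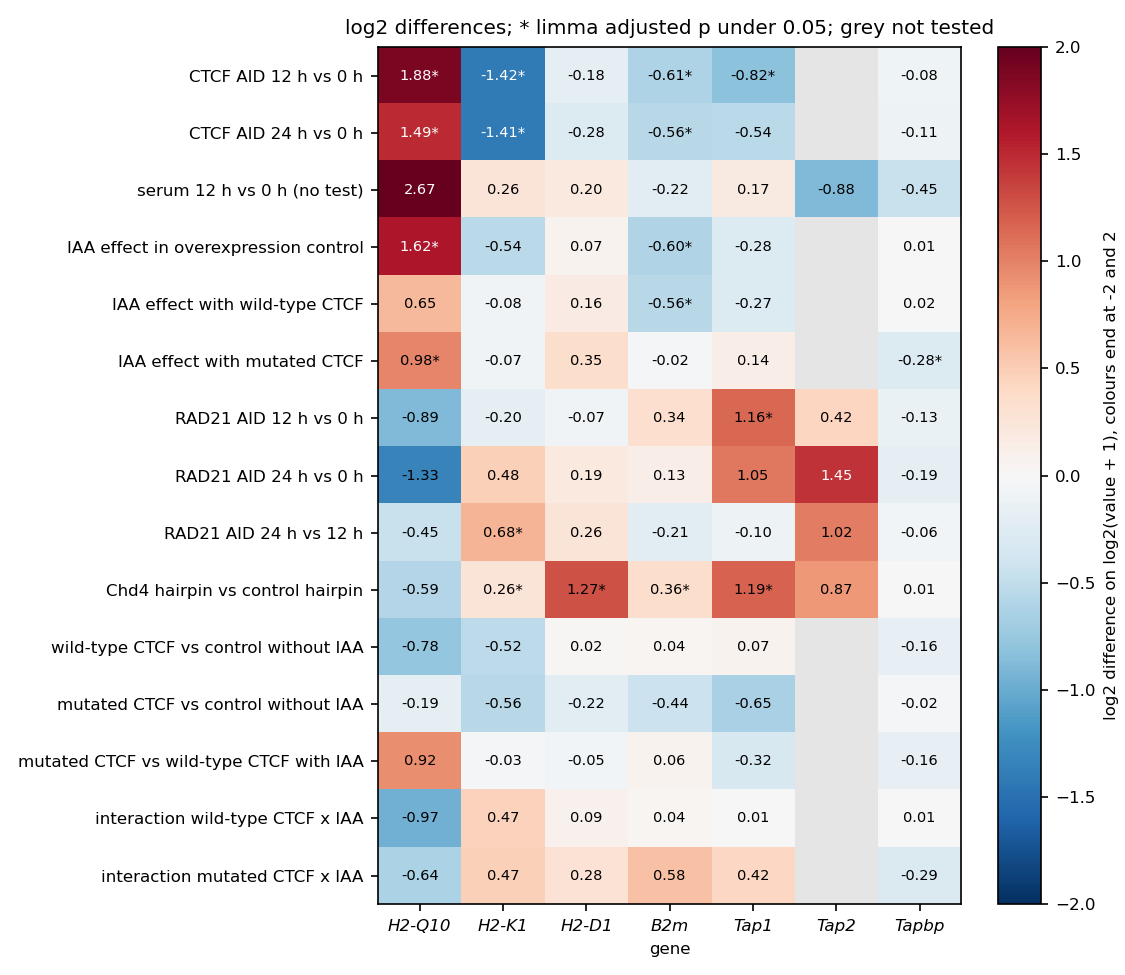
Log2 differences on log2(value + 1) for 7 genes (columns) in 15 comparisons (rows), red higher and blue lower, with asterisks for limma adjusted p under 0.05 and grey where the gene was not tested. Outside serum, H2-Q10 is red in every comparison of IAA against no IAA in CTCF AID cells, of which 4 passed. Its red in serum is the rise that selected it and has no test. H2-Q10 is blue in RAD21 AID cells and with the Chd4 hairpin without passing.

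RAD21 degradation addressed which changes follow loss of cohesin rather than of CTCF. Tap1 rose 2.23-fold at 12 h and no other gene passed against 0 h. Tap1 was at 38.4 and 33.8 untreated, 106 and 62.5 at 12 h, and 77.2 and 74.7 at 24 h, so all treated libraries were higher. The log2 differences were 1.16 ± 0.29 (adjusted p 0.043) at 12 h and 1.05 ± 0.29 (adjusted p 0.055) at 24 h. H2-Q10 had lower values after RAD21 loss, 17.8 and 23.1 untreated against 10.9 and 10.2 at 12 h and 5.40 and 10.1 at 24 h. These did not overlap and did not pass (-0.89 ± 0.47 and -1.33 ± 0.47, adjusted p 0.26 and 0.11).

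H2-K1 was at 415 and 310 untreated, 286 and 343 at 12 h and 451 and 557 at 24 h. It passed only between 12 and 24 h among the 3 RAD21 comparisons (0.68 ± 0.18, adjusted p 0.044). B2m was at 262 and 290 untreated, 328 and 371 at 12 h and 297 and 307 at 24 h, with a 12 h difference of 0.34 ± 0.11 (adjusted p 0.10). H2-D1, Tap2 and Tapbp did not pass at either time, and their differences from 0 h ran from -0.07 to 0.19, from 0.42 to 1.45 and from -0.19 to -0.13.

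Of the 7 genes tested, 1 was called at 12 h (13.0% of all 13738 genes), 0 at 24 h (13.7%; 3 at an unadjusted p under 0.05) and 1 between 12 and 24 h (15.9%), shares near those of all genes. The Tap1 call at 12 h ended without either untreated library, without the first 12 h library (0.78, adjusted p 0.17) or without either 24 h library, and the H2-K1 call ended without any 1 of the 4 libraries compared. Tap1 at 24 h passed when a 12 h library was left out or when only the groups compared were fitted (adjusted p 0.040 to 0.046). Of 6 primitive endoderm markers tested at 24 h only Lama1 passed (1853 and 1981 to 2898 and 2818), and it sets most of their sum, which went from 1977 to 2092 at 0 h to 2974 to 3073 at 24 h (6 of 8 listed, without Foxa2 and Sox7). Its part in the class I values was not tested.

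The Chd4 hairpin addressed loss of a NuRD remodeller in cells with CTCF in place. H2-D1 rose 2.42-fold, Tap1 2.28-fold, and B2m and H2-K1 by 1.28-fold and 1.20-fold. H2-D1 went from 251 and 301 in the control libraries to 688 and 645 (1.27 ± 0.11, adjusted p 9.7e-05). Tap1 went from 57.2 and 66.9 to 135 and 150 (1.19 ± 0.19, adjusted p 0.0012). For neither gene did the groups overlap.

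B2m was at 298 and 296 against 386 and 374 (0.36 ± 0.10, adjusted p 0.014), and H2-K1 at 1034 and 893 against 1116 and 1181 (0.26 ± 0.09, adjusted p 0.033). Tap2 was at 11.2 and 22.8 against 28.8 and 31.6 and missed the threshold (0.87 ± 0.40, adjusted p 0.092). H2-Q10 was at 50.9 and 78.6 against 37.4 and 46.5 (-0.59 ± 0.29, adjusted p 0.11), and Tapbp overlapped (0.01 ± 0.16).

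These 4 called of 7, all higher, stand beside 67.4% of 15499 genes called in that table (33.5% higher, 33.8% lower). The calls of H2-D1 and Tap1 held without any single library. That of B2m ended without either Chd4 hairpin library (adjusted p up to 0.096), and that of H2-K1 without the second control library or either Chd4 hairpin library (0.15 to 0.30, adjusted p 0.14 to 0.23). H2-Q10 passed after quantile normalisation (-1.06, adjusted p 0.012) and without the first control library (-0.90, adjusted p 0.016), as did Tap2 without the second (1.36, adjusted p 0.0074). Summed fibroblast markers went from 281 to 347 up to 806 to 851 (5 of 8 listed, Col3a1, Dcn and Lum unlisted or at 0), stem cell markers from 123242 to 124942 down to 77462 to 78745, and trophoblast markers from 1938 to 1991 up to 2338 to 2496. Of 8 trophoblast markers 5 were listed, with Cdx2, Elf5 and Hand1 unlisted or at 0. All 5 passed, with Gata3, Krt8, Krt18 and Eomes higher and Tfap2c lower. The primitive endoderm sum was level (1931 to 2039 against 1951 to 2058), but all 7 of those markers tested passed, with Dab2, Sox7, Gata6 and Pdgfra higher and Gata4, Sox17 and Lama1 lower. Dab2 went from 1.74 and 1.82 to 613 and 620. The part of these markers in the class I values was not tested.

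Other heavy chains gave a mixed picture after CTCF degradation. Of 10 tested at 12 h, 3 fell and 0 rose, where 17.8% of all genes were called, with a median log2 difference of -0.23 where the median of all genes was 0.00. H2-Q2 went from 25.8 and 26.5 to 3.02 and 4.36 (-2.55 ± 0.48, adjusted p 0.013), H2-Bl from 566 and 590 to 216 and 190 (-1.51 ± 0.12, adjusted p 0.00047), and Fcgrt, the receptor that recycles IgG, from 175 and 184 to 49.8 and 79.3 (-1.50 ± 0.24, adjusted p 0.0073). The same 3 genes were the ones called at 24 h. In the overexpression control, where 25.3% of all genes were called, 2 of 9 rose with IAA: H2-Q7 from 7.67 and 0.488 to 30.1 and 18.9 (2.79 ± 0.88, adjusted p 0.039) and H2-Bl from 237 and 220 to 377 and 394 (0.75 ± 0.09, adjusted p 0.00017). H2-Bl thus passed in opposite directions in the 2 tables, and the difference between those effects was not tested. With the Chd4 hairpin, where 67.4% of all genes were called, 3 of 11 rose and 6 fell, led by H2-M5 (271 and 246 to 562 and 566) and by Mr1, which presents vitamin metabolites (30.2 and 30.7 to 2.87 and 2.68). In serum 0 of 12 passed, where 17.0% of all 14494 genes did.

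Of 10 peptide loading and trimming genes, 2 rose and 1 fell after 12 h of CTCF degradation, near the share of all genes (17.8%): the aminopeptidase gene Lnpep (0.34 ± 0.07), the chaperone gene Canx (0.13 ± 0.03) and the chaperone gene Calr (-0.28 ± 0.03). Calr, the chaperone of the loading complex, went from 10730 and 10699 to 8831 and 8800 (adjusted p 0.0017). The median of the 10 was 0.05. At 24 h 3 rose and 2 fell (22.5% of all genes called), with the largest rise in Erap1, which trims peptides (81.2 and 76.1 to 150 and 115, 0.73 ± 0.19, adjusted p 0.033). Among immune proteasome subunits, which shape the peptides offered to TAP, 0 of 5 passed at 12 h, and Psmb9, whose exons overlap Tap1, was at 26.9 and 35.1 untreated and 12.9 and 16.8 at 12 h without passing. With the Chd4 hairpin 6 of 10 loading genes rose and 2 fell (67.4% of all genes called there), with a median of 0.40 and led by Tapbpl, a tapasin relative (20.1 and 22.4 to 57 and 69.3, 1.52 ± 0.26, adjusted p 0.0019).

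Of 30 regulators of class I tested at 12 h in the CTCF AID cells, 7 rose and 3 fell, with a median of 0.06, where 9.39% of all genes rose and 8.40% fell. Irf8, an interferon regulatory factor, fell from 31.7 and 42.1 to 0 and 1.26 (adjusted p 0.0039), and Relb, an NF-kB subunit, rose from 306 and 287 to 407 and 541 (0.66 ± 0.14, adjusted p 0.020). Jak2, a kinase of the interferon gamma receptor, also fell (-0.82 ± 0.15) and was named after its values were seen. In the overexpression control with IAA Jak2 (350 and 368 to 172 and 136) fell too, among 5 lower and 6 higher of 29 (25.3% of all genes called). With the Chd4 hairpin 10 of 33 rose and 15 fell, where 33.5% of all genes rose and 33.8% fell. The largest rise there was of Irf7, listed at 0 in both control libraries and at 22.7 and 27.2 with the Chd4 hairpin. The largest fall called there was of Relb. Nlrc5, the class I transactivator, went from 17.2 and 5.17 to 84.7 and 83.3 (3.00 ± 0.50, adjusted p 0.0017) and was named after its values were seen.

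Interferon-stimulated genes tested after 12 h of CTCF degradation numbered 13, of which 5 rose and 1 fell, with a median of 0.18, where 9.39% of all genes rose and 8.40% fell. Irgm1, an immunity-related GTPase, led with 33.9 and 25.9 untreated and 76.8 and 57.4 at 12 h (1.14 ± 0.27, adjusted p 0.029), and Oas1a fell (-0.38). Class II genes and their regulators gave 0 of 5 calls at that time, where 17.8% of all genes were called. Ligands of NKG2D, the activating receptor of natural killer cells, gave 2 of 3, both lower. Raet1d went from 78.9 and 83.4 to 15.2 and 8.65 (-2.71 ± 0.38, adjusted p 0.0038) and Raet1e from 52.6 and 41.1 to 8.73 and 9.36 (-2.24 ± 0.40, adjusted p 0.011). In the overexpression control with IAA 0 of 3 of these ligands passed, where 25.3% of all genes did. With the Chd4 hairpin 4 of 15 interferon-stimulated genes rose and 5 fell, with a median of -0.09. There 33.5% of all genes rose and 33.8% fell.

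Neighbours of H2-Q10 were read because the H2-Q genes lie in tandem with Pou5f1, the stem cell factor, close by. Of 7 genes tested whose start lies within 100 kb, 1 was called after 12 h of CTCF degradation, near the 17.8% of all genes. It was 2300002M23Rik, whose start lies 97.4 kb away (0.99 ± 0.26, adjusted p 0.039). H2-Q7 (start at -30.9 kb) differed by -0.40 ± 0.35, H2-Q4 (at -90.5 kb) by -0.55 ± 0.38 and Pou5f1 (at 35.9 kb) by -0.05 ± 0.03, none passing. In the overexpression control H2-Q7 rose (2.79) and Pou5f1 fell by 0.14 ± 0.03 (adjusted p 0.0035). Around H2-K1, 1 of 17 neighbours was called at 12 h, Rgl2 (-0.63), and around H2-D1 1 of 4, H2-Q2, beside the same 17.8%.

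**Figure D4:**
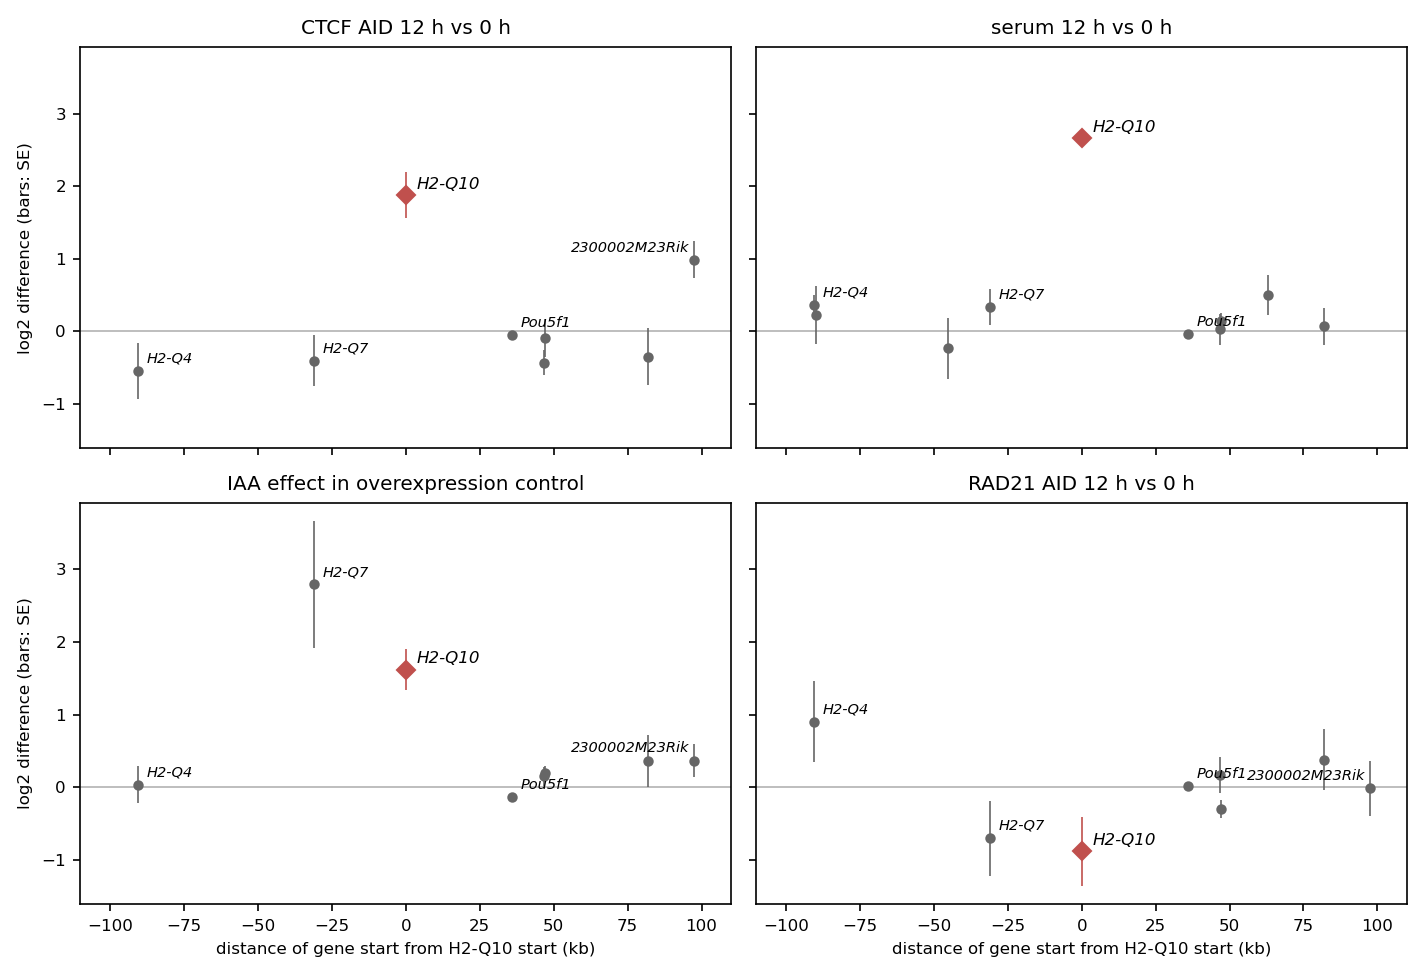
Log2 difference of each tested gene against the distance of its start from that of H2-Q10 in kb, in 4 comparisons. Bars are standard errors, and H2-Q10 itself is the red diamond, drawn without a bar in serum where it has no test. In the CTCF AID panel H2-Q10 stands above its neighbours, and in the overexpression control H2-Q7 rises with it. The serum panel shows the rise that selected H2-Q10, so its place above its neighbours there is only described.

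Genes with the most similar pattern were sought over the 28 libraries outside the Chd4 table, by Pearson r of log2 values centred within each table. For H2-Q10 these were Ddx43 (0.885), Phb2 (0.884), Pdf (0.867), Fdxacb1 (0.867) and Mlst8 (0.865), out of 10072 genes. For H2-K1 they were Mmp14 (0.80), Atp1b2, Klhl7, Abcb10 and Wwc2, for B2m Tgm2 (0.843), Ncaph, Zfp956, Ubqln1 and Neu3, and for Tapbp Kifc5b (0.817), Pcnt, Dync1li1, Cenpt and Kmt5c. Among the class I genes themselves r was -0.62 between H2-Q10 and B2m, -0.31 between H2-Q10 and H2-K1, 0.50 between H2-K1 and B2m and 0.56 between B2m and Tap1. The libraries share groups and tables, so these r describe likeness only.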

How the data were processed

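The authors' deposited tables hold normalised counts per gene, a signal that is never negative and not whole reads, for 5 sets of libraries. Per the submitters' processing notes, the tools were Trim Galore, Bowtie2, STAR, RSEM and DESeq2 and the build was mm10, with no versions or roles. The values did not fall on whole steps, so no reads were recovered, depth is known only through the summed values, and no count test was run. In all 0 columns were left unmapped. The CTCF AID table breaks off in its last line.

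A gene entered the test where its mean over a table's libraries reached 10, and each table had 1 limma fit (version 3.58.1, R 4.3.3) of all its groups, on the log2(value + 1) scale. Calls needed an adjusted p (Benjamini-Hochberg, all tested genes of the table) under 0.05. Folds are on that scale and understate the change of low genes. The fit was tested on simulated data. The members and lists were chosen with earlier results of these data known. Besides the members, the rule named the largest rise and fall called per list, neighbours within 100 kb, and the 5 genes most alike in pattern among those with a mean of at least 50. Alternatives were a pseudocount of 10, no filter, quantile normalisation, only the groups compared, the replicate number as a block, the treatment label, summed class I genes, and each library left out. Same-numbered libraries deviated together with r from -0.063 to 0.10, so the numbers were not taken to pair them. Gene identifiers matched GENCODE M21 (GRCm38) for at least 99.9% of genes. One regulator of the fixed lists is counted but not reported here by name.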

Additional observations from a re-analysis of the deposited data

Results flagged for a closer look

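Some effects ran in opposite directions in 2 sets of cells, with every treated library on one side of its controls in the first set and on the other side in the second. Each value below is the first log2 difference minus the second. The sets were normalised separately and none of these differences was tested. For 12 h of IAA without and with serum the value was -1.68 for H2-K1 (-1.42 against 0.26) and -0.37 for H2-D1 (-0.18 against 0.20). For 12 h of CTCF against RAD21 degradation it was 2.77 for H2-Q10 (1.88 against -0.89), -0.95 for B2m (-0.61 against 0.34) and -1.97 for Tap1 (-0.82 against 1.16). For 24 h it was 2.83 for H2-Q10 (1.49 against -1.33), -1.89 for H2-K1 (-1.41 against 0.48) and -1.59 for Tap1 (-0.54 against 1.05). At 24 h it was also -0.47 for H2-D1 (-0.28 against 0.19) and -0.69 for B2m (-0.56 against 0.13), where the RAD21 effects were under 0.20. For Tap2, listed at 0 in both CTCF AID libraries at 24 h, it was -5.01 (-3.57 against 1.45) and rests on values under 31. The agents and doses differed between the 2 degradations.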

How the results depend on the processing

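Of the 18 calls of members, all kept their direction in every setting except the class I sum below, a pseudocount of 10 and no filter on low values ended none of them, and the number of members called changed with other settings as follows. With quantile normalisation it went from 4 to 2 for CTCF AID at 12 h, from 2 to 1 for IAA with mutated CTCF, from 1 to 0 for IAA with wild-type CTCF and from 1 to 0 for RAD21 AID at 24 h against 12 h, and B2m at 24 h in CTCF AID also missed the threshold (adjusted p 0.051), 6 calls lost in all. When the table's other groups were left out of the fit it went from 2 to 0 for IAA with mutated CTCF, from 1 to 0 for RAD21 AID at 12 h and from 0 to 1 for RAD21 AID at 24 h, B2m at 24 h in CTCF AID missed it (adjusted p 0.055), and in the overexpression control B2m missed it (adjusted p 0.064) while H2-K1 passed (-0.54, adjusted p 0.033), 5 calls lost in all. With groups taken from the treatment label it went from 2 to 0 for IAA in the overexpression control. The label setting was otherwise run only for wild-type CTCF against control without IAA. The calls for IAA beside wild-type or mutated CTCF were therefore not checked by it. With the replicate number as a block the number called went from 1 to 0 for RAD21 AID at 24 h against 12 h, Tap1 at 12 h in CTCF AID missed the threshold (adjusted p 0.055), and the other 16 calls were kept. The numbers mark no shared source in the labels.

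The sum of the H2-K, H2-D, H2-Q and H2-T genes, set in place of H2-Q10, had the opposite sign to the rise of H2-Q10. That sum fell (-0.78 at 12 h and -0.82 at 24 h of CTCF degradation), while H2-Q10 itself did not. In untreated CTCF AID cells the sum averaged 949, of which H2-K1 held 647 and H2-Q10 17.4. It therefore mainly follows H2-K1 and is no check of H2-Q10. Other changes of sign came in values that were not called. They were B2m for IAA with mutated CTCF (0.033) and H2-K1 for mutated against wild-type CTCF under IAA (0.0084) with quantile normalisation, and Tap1 (-0.059) and B2m (-0.24) for wild-type CTCF against control by the treatment label. The cause of these other changes was not tested.

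Leaving out each library in turn gave 1 to 4 members called for CTCF AID at 12 h, 1 to 2 at 24 h, 2 to 5 with the Chd4 hairpin, 1 to 3 for IAA in the overexpression control, 0 to 2 with mutated CTCF, and 0 to 1 with wild-type CTCF and in each RAD21 comparison. A group then holds 1 library, which is assumed to vary like the others. Uncalled values that changed sign ranged as follows. For CTCF AID at 12 h, Tapbp ran from -0.17 to 0.017. For RAD21 AID at 12 h, Tap2 ran from -0.57 to 1.42, H2-K1 from -0.40 to 0.014 and H2-D1 from -0.20 to 0.065, and at 24 h against 12 h Tap1 ran from -0.48 to 0.28 and Tapbp from -0.14 to 0.018. With the Chd4 hairpin Tapbp ran from -0.22 to 0.25. For IAA in the overexpression control Tapbp ran from -0.094 to 0.11, Tap1 from -0.63 to 0.071 and H2-D1 from -0.12 to 0.26. Beside wild-type CTCF Tapbp ran from -0.020 to 0.050, Tap1 from -0.93 to 0.39, H2-K1 from -0.38 to 0.23 and H2-D1 from -0.038 to 0.36. Beside mutated CTCF Tap1 ran from -0.058 to 0.34, H2-K1 from -0.20 to 0.063 and B2m from -0.20 to 0.16. Without IAA, wild-type CTCF against control gave Tap1 from -0.38 to 0.53, B2m from -0.18 to 0.26 and H2-D1 from -0.12 to 0.16, and mutated CTCF against control gave Tapbp from -0.13 to 0.079. Mutated against wild-type CTCF under IAA gave Tap1 from -0.98 to 0.34, H2-D1 from -0.25 to 0.15, B2m from -0.019 to 0.14 and H2-K1 from -0.34 to 0.27. The wild-type interaction gave Tapbp from -0.097 to 0.11, H2-D1 from -0.11 to 0.29, Tap1 from -0.65 to 0.67 and B2m from -0.18 to 0.26. With 2 libraries a group and no read counts, differences in H2-Q10 and Tap2, whose values lie near the minimum of 10 in several groups, are the least precise.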
